A study of Homo sapiens with 6 samples.

Results

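The epithelial-mesenchymal transition (EMT) is the program by which epithelial cells loosen their junctions and take on a motile, mesenchymal state. Its transcription factors of the ZEB, SNAI and TWIST families bind E-box motifs and repress epithelial genes such as CDH1, which encodes E-cadherin of the adherens junction. Mesenchymal genes such as CDH2, VIM and FN1 are usually taken to rise in EMT, and the splicing regulator ESRP1 is usually taken to fall. In liver cells these markers need care, because hepatocytes also express N-cadherin and secrete fibronectin.

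The 10 genes described here are ZEB1, ZEB2, SNAI1, SNAI2, TWIST1, CDH1, CDH2, VIM, FN1 and ESRP1. They were chosen by name as core regulators and markers of EMT, with earlier results of these data known. All 10 were found among the 23228 genes of the deposited tables. The RNA came from Hep3B, an established human hepatocellular carcinoma (HCC) line grown in RPMI medium. Cells were transduced with lentiviral shRNA, short hairpin RNA that directs the breakdown of a matching mRNA, and were selected with puromycin. The control group has 3 libraries, from cells given non-targeting shRNA, and the other group has 3 libraries labelled PELP1-KD, of pooled stable clones with shRNA against PELP1. The titles of the latter name a single hairpin, PELPsh1, while the treatment text names a pair, so which hairpin a library carries rests on its title. PELP1 is a scaffold protein of chromatin and kinase complexes and of the Rix1 complex in ribosome biogenesis, and the study asked what its loss does to the growth and invasion of HCC cells. Nothing in the labels says that the 3 libraries of a group came from separate cultures, so p values measure the spread between these libraries, which may be technical.

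The control libraries held 32946308 to 34456864 reads on genes, and the PELP1-KD-labelled ones held 26758636 to 31536114. Of the targeted gene itself, controls had 5338, 5127 and 5349 reads and the PELP1-KD-labelled libraries had 4318, 4135 and 4846. Scaled to library size, PELP1 was at 94.5% of control (log2 fold change −0.08, standard error 0.04, adjusted p = 0.101 from edgeR), and with a block for the replicate number the same fold change had an adjusted p of 0.0106. Without replicate 3 of PELP1-KD it was −0.10 (adjusted p = 0.0179). PELP1 RNA was thus close to control, and RNA counts do not measure its protein, so groups are named by their labels and each direction is that of the labels. All 10 hepatocyte markers examined were present, with ALB at 3169 to 4988 and AFP at 2141 to 3510 RPKM (reads scaled to exon length and to library size).

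Of the 10 genes, 8 had enough reads to be tested. ZEB1, ZEB2, VIM and ESRP1 fell in the PELP1-KD-labelled libraries, and SNAI1, CDH1, CDH2 and FN1 rose. SNAI2 was rare and was lower, and TWIST1 was at or near 0 reads. All 8 tested genes passed an adjusted p of 0.05 in edgeR's quasi-likelihood test, in a comparison where 53.6% of the 14537 tested genes passed it (26.7% lower and 26.8% higher). That p and a 2-fold change together were passed by ZEB2 and ESRP1, against 7.64% of the tested genes. The libraries of the groups did not overlap for any of the 8, as for 58.8% of the tested genes. Their median absolute log2 fold change was 0.70, and that of all tested genes was 0.20. The 10 genes were chosen with earlier results of these data known, so setting them beside all genes is no test. With their signs the 8 values had a median of 0.16, and all tested genes had 0.0045, so as a group they moved both ways.

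**Figure D1:**
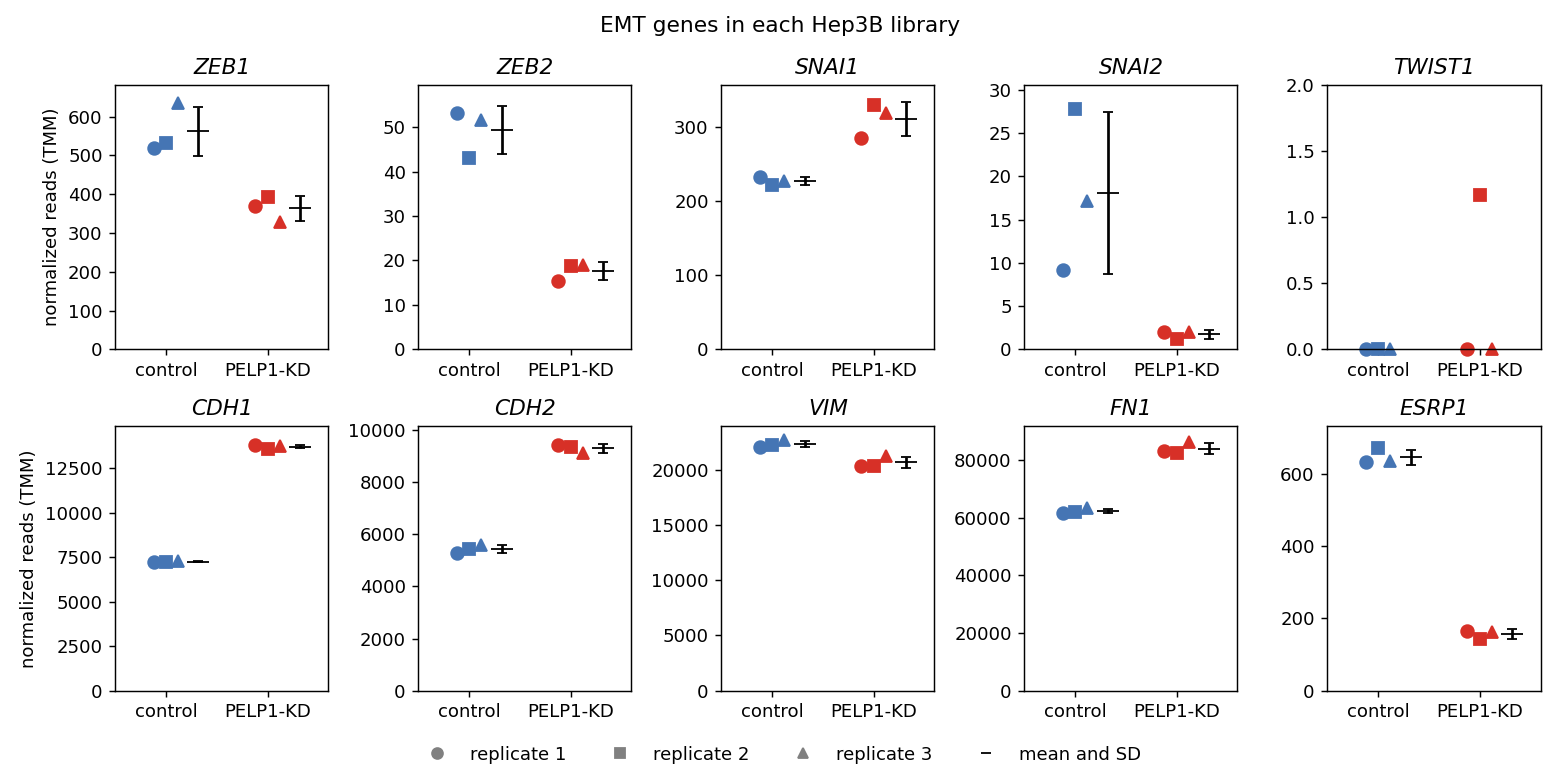
Reads scaled to library size (TMM-normalized reads, vertical axis from 0 in each panel) of the 10 EMT genes in the 3 control libraries (blue) and the 3 labelled PELP1-KD (red). Marker shapes stand for replicate numbers and black bars for mean and SD (none drawn for TWIST1). The groups are apart in 9 panels, and TWIST1 has 1 read in all.

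The ZEB genes encode zinc finger repressors of CDH1 and of other epithelial genes. ZEB1 spans 31608101 to 31818742 of chromosome 10 (hg19, plus strand), and its exons share 0 bases with another gene of the annotation, as do those of the other 9 genes. It had 567, 556 and 665 reads in control and 360, 336 and 330 in the PELP1-KD-labelled ones. Every control value lay above every other value, and replicate 3 gave both the highest and the lowest scaled level. Scaled to library size, ZEB1 fell from 562 ± 62.7 to 363 ± 31.5 normalized reads (SD, n = 3 per group), which is 64.6% of control (log2 fold change −0.63, standard error 0.09, edgeR adjusted p = 4.30e-06).

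ZEB2, on chromosome 2 from 145141942 to 145277958 on the minus strand, had 58, 45 and 54 reads in control and 15, 16 and 19 in the PELP1-KD-labelled libraries. These groups were far apart, but the counts are small. Its log2 fold change came to −1.48 (standard error 0.24, 95% interval −2.14 to −0.81, edgeR adjusted p = 3.11e-05), and the ratio of the summed reads, control over the other group, was 2.80 with an exact 95% counting interval of 2.02 to 3.93. Per length ZEB2 was the rarer paralog, at 0.135 RPKM against 2.80 RPKM for ZEB1 in control. The log2 ratio of ZEB2 to ZEB1 per length was −4.16, −4.49 and −4.49 in control and −5.45, −5.26 and −4.99 in the PELP1-KD-labelled ones. ZEB2 thus fell further than ZEB1, with a difference of −0.85 on the log2 scale, and no library of one group reached the other (exact permutation test, two-sided, p = 0.1, the smallest that 3 against 3 allow).

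Both ZEB mRNAs are known targets of the miR-200 family, microRNAs of epithelial cells that pair through the seed, bases 2 to 8 of the mature RNA. The mature sequences are shown because the 2 seeds define the sites that ZEB1 and ZEB2 share. They are from RefSeq (GRCh38.p14), with the seed in capitals.
hsa-miR-200b-3p: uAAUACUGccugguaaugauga
hsa-miR-200c-3p: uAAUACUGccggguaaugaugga
hsa-miR-429: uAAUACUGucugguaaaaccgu
hsa-miR-200a-3p: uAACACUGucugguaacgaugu
hsa-miR-141-3p: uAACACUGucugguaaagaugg
The 3 upper sequences share the seed AAUACUG and the 2 lower ones AACACUG, which differ at a single base.

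Matches to the 7 bases of either seed were searched on the transcript strand in the 3′ UTR of the MANE Select transcript, the reference isoform of each gene (GENCODE annotation on hg19). ZEB1 held 9 matches in 2540 bases, 6 to AAUACUG and 3 to AACACUG. ZEB2 held 9 in 5370 bases, 5 and 4. Of 2322 other genes with a 3′ UTR within 20% of the length of ZEB1's, 46.4% held a match and 0 held as many as 9. For ZEB2, 73.2% of 1134 such genes held a match and 1 held as many. FN1 held 2 matches in 690 bases, and CDH2 and VIM held 0. SNAI1, SNAI2, TWIST1, CDH1 and ESRP1 were not searched, so whether they hold matches is not known. Of 1885 genes with a 3′ UTR of like length to FN1's, 13.8% held a match and 1.01% held as many as 2. An A after the match, which is known to favour targeting by a microRNA, followed 4 of the ZEB1 matches and 8 of the ZEB2 matches. Sites of that kind, 4 for each gene, are given 5′ to 3′ with the match in capitals.
ZEB1, chr10:31816546-31816568, plus strand: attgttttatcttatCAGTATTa
ZEB1, chr10:31817420-31817442, plus strand: ctgatttttacctatCAGTATTa
ZEB1, chr10:31817490-31817512, plus strand: tgtcttcaaacctggCAGTATTa
ZEB1, chr10:31817710-31817732, plus strand: tgagatttgatttaaCAGTGTTa
ZEB2, chr2:145146277-145146299, minus strand: agtgccatccttgtaCAGTGTTa
ZEB2, chr2:145146198-145146220, minus strand: ttgaagcacccatgtCAGTATTa
ZEB2, chr2:145146113-145146135, minus strand: gttcattaattttgtCAGTATTa
ZEB2, chr2:145145982-145146004, minus strand: tcatactgtagtgtaCAGTATTa
A match is a description of the sequence and not evidence of repression. The libraries do not measure mature microRNAs, and the hairpin genes MIR200A, MIR200B, MIR200C, MIR141 and MIR429 had 0 to 4 reads in any library.

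ZEB and SNAI proteins bind E-boxes of the form CACCTG, or CAGGTG on the opposite strand, and both were searched in the 250 bases before each RefSeq start. Windows were matched for 5 of the 10 genes (ZEB1, ZEB2, CDH2, VIM and FN1), 12 windows in all. A match was present in 2 windows, both of ZEB1, where 17.5% of 35116 windows of all genes hold one. Most of the 12 windows were of ZEB1, and 2 windows with a match among 12 is close to the share of all windows. One of the 2, chr10:31318966-31319215 (GRCh38.p14), has CACCTG from 242 and CAGGTG from 85 bases before its start. The other, of the most upstream ZEB1 start, has CAGGTG from 57 bases before the start. Whether ZEB or SNAI proteins act at these sites was not tested.
ZEB1, GRCh38.p14, chr10:31318167-31318416, plus strand, E-box in capitals: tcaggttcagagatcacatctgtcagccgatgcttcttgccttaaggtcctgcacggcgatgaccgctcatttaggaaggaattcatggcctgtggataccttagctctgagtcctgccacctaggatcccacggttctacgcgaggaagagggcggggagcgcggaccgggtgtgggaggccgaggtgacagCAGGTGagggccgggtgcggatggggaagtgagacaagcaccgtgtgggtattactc
The absence of a match says only that these letters are not in a window.

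SNAI1 and SNAI2 encode the repressors Snail and Slug, and their RNAs moved in opposite directions. SNAI1 (chromosome 20, bases 48599513 to 48605420) had 254, 232 and 238 reads in control and 279, 283 and 319 in the PELP1-KD-labelled libraries. The latter were lower in total depth and yet all higher in reads. SNAI1 rose from 227 ± 5.25 to 311 ± 23.1 normalized reads (SD, n = 3 per group), a log2 fold change of 0.45 (standard error 0.09, edgeR adjusted p = 0.00021). SNAI2 (chromosome 8, bases 49830239 to 49833999) had 10, 29 and 18 reads in control and 2, 1 and 2 in the other group. Its groups did not overlap, but its control values spread by 51.8% (coefficient of variation) and it stayed below edgeR's filter on low counts. The summed reads, 57 against 5, give a ratio of 10.2 with an exact 95% counting interval of 4.11 to 32.5, which covers counting error only. With no filter on low counts, edgeR gave SNAI2 a log2 fold change of −3.26 (adjusted p = 2.14e-06).

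TWIST1, a basic helix-loop-helix factor of EMT, was not detectable at this depth. It lies on chromosome 7 from 19155091 to 19157295. All control libraries and replicates 1 and 3 of PELP1-KD had 0 reads, and replicate 2 had 1 read. A count of 0 allows up to 3 reads, or 0.0525 to 0.0587 RPKM in the libraries with 0 reads. No fold change is given, because both groups are under that limit.

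The cadherins rose together. CDH1 (E-cadherin) (chromosome 16, bases 68771195 to 68869444) had 7898, 7560 and 7637 reads in control and 13516, 11675 and 13755 in the PELP1-KD-labelled libraries. Its scaled values were the closest of all 10 genes, with a coefficient of variation of 0.336% in control and 0.782% in the other group. CDH1 rose from 7257 ± 24.4 to 13733 ± 107 normalized reads (SD, n = 3 per group), or 189% of control (log2 fold change 0.92, standard error 0.03, 95% interval 0.83 to 1.01, edgeR adjusted p = 5.15e-15). Of all tested genes, 3.35% had a higher fold change.

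CDH2 (N-cadherin) (chromosome 18, bases 25530930 to 25757445) had 5783, 5670 and 5865 reads in control and 9212, 8017 and 9135 in the PELP1-KD-labelled libraries. It rose from 5443 ± 147 to 9303 ± 159.8 normalized reads (SD, n = 3 per group), 171% of control (log2 fold change 0.77, standard error 0.04, edgeR adjusted p = 4.07e-13). A switch from CDH1 to CDH2 is a textbook sign of EMT, and its measure within a library does not depend on scaling. The log2 ratio of CDH2 to CDH1 per length was −0.31, −0.27 and −0.24 in control and −0.41, −0.40 and −0.45 in the PELP1-KD-labelled ones. The ratio was thus lower by 0.15 on the log2 scale in the latter, from 0.827 to 0.747 as a plain ratio, with no overlap (exact permutation test, two-sided, p = 0.1, the smallest possible).

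VIM, which encodes the intermediate filament protein vimentin, and FN1, which encodes fibronectin of the extracellular matrix and plasma, were by far the most abundant of the 10 genes. VIM (chromosome 10, bases 17270258 to 17279592) had 24072, 23235 and 23777 reads in control and 19911, 17417 and 21301 in the PELP1-KD-labelled libraries. Its change was the smallest of the 8 tested, from 22339 ± 313 to 20661 ± 533 normalized reads (SD, n = 3 per group), which is 92.5% of control (log2 fold change −0.11, standard error 0.03, edgeR adjusted p = 0.00406). The nearest libraries of the groups, control replicate 1 and PELP1-KD replicate 3, had 22067 and 21276 normalized reads. The ratio of VIM to CDH1 per length fell from 6.94 to 3.39, a log2 difference of −1.03, with values of 2.78, 2.79 and 2.81 in control and 1.73, 1.75 and 1.80 in the other libraries.

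FN1 (chromosome 2, bases 216225179 to 216300791) had 67357, 64733 and 66320 reads in control and 81183, 70772 and 86283 in the PELP1-KD-labelled libraries. It rose from 62350 ± 803 to 83959 ± 1943 normalized reads (SD, n = 3 per group), 135% of control (log2 fold change 0.43, standard error 0.03, edgeR adjusted p = 8.34e-11). FN1 and VIM, both taken as mesenchymal markers, thus moved in opposite directions, but the fall of VIM was small. Of all tested genes, 33.3% had a lower fold change than VIM, and their median absolute log2 fold change was 0.20.

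ESRP1, an epithelial RNA-binding protein that sets the splicing of genes such as CD44 and FGFR2, changed most among the tested genes of the 10. It lies on chromosome 8 from 95653364 to 95719694. The control libraries had 689, 699 and 665 reads and the PELP1-KD-labelled ones had 162, 122 and 163. ESRP1 fell from 645 ± 21.4 to 157 ± 12.8 normalized reads (SD, n = 3 per group), 24.3% of control (log2 fold change −2.03, standard error 0.08, 95% interval −2.26 to −1.81, edgeR adjusted p = 6.37e-14), and 1.94% of the tested genes had a lower value. Its paralog ESRP2 rose from 2251 ± 64.7 to 2667 ± 83.0 normalized reads (SD, n = 3 per group; log2 fold change 0.24, edgeR adjusted p = 7.21e-05). Per length ESRP2 was already the more abundant paralog in control, at 17.8 RPKM against 5.40 RPKM for ESRP1, and was at 21.1 RPKM against 1.31 RPKM in the other libraries. The plain ratio of ESRP2 to ESRP1 per length, looked at after the values were seen, went from 3.30 to 16.1. Reads per gene do not show splicing, so no isoform was measured.

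**Figure D2:**
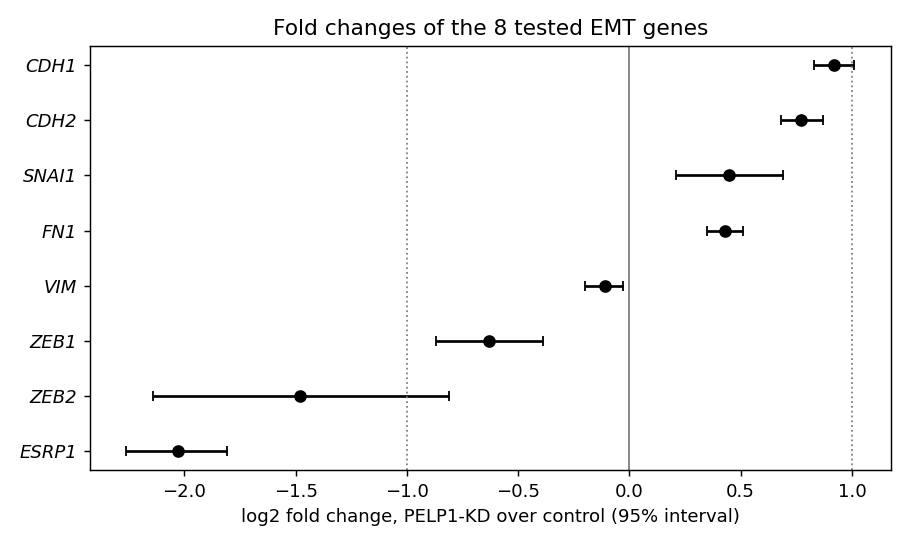
Log2 fold changes from edgeR (horizontal axis, PELP1-KD over control) of the 8 tested genes. Bars are 95% intervals, with standard errors taken as the size of the log2 fold change divided by √F, and 4 degrees of freedom. The dotted lines mark 2-fold changes. ESRP1, ZEB2, ZEB1 and VIM lie below 0, and FN1, SNAI1, CDH2 and CDH1 above it.

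**Figure D3:**
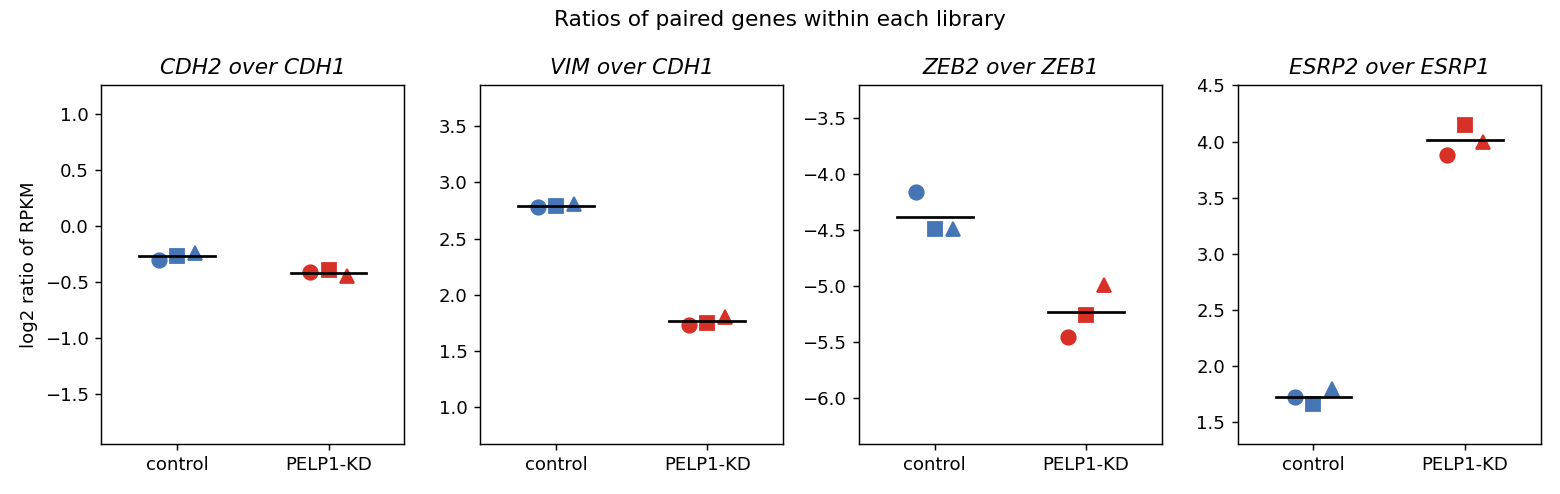
Log2 ratio of RPKM within each library (vertical axes of equal span) for CDH2 over CDH1, VIM over CDH1, ZEB2 over ZEB1 and ESRP2 over ESRP1, in 3 control libraries (blue) and 3 labelled PELP1-KD (red). Circles, squares and triangles are replicates 1, 2 and 3 and black lines are means. The groups are apart in each panel, by −0.15, −1.03, −0.85 and 2.29.

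Per length, the order of the 10 genes in control was VIM (333 RPKM), FN1 (221 RPKM), CDH1 (48.0 RPKM), CDH2 (39.7 RPKM), ESRP1 (5.40 RPKM), SNAI1 (4.24 RPKM), ZEB1 (2.80 RPKM), SNAI2 (0.272 RPKM), ZEB2 (0.135 RPKM) and TWIST1. The libraries of SNAI2 and ZEB2 overlapped, and all other neighbours were apart. In the PELP1-KD-labelled libraries, VIM (308 RPKM) and FN1 (298 RPKM) overlapped, and so did SNAI2 and TWIST1. ESRP1 dropped there below both SNAI1 (5.81 RPKM) and ZEB1 (1.81 RPKM).

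Other genes of the same processes were taken from lists fixed by name, also with earlier results of these data known. Genes counted as fallen or risen passed an adjusted p of 0.05 in edgeR, as did 53.6% of all tested genes (26.7% lower and 26.8% higher). Among 9 tested of 14 further EMT transcription factors, 3 fell and 2 rose (55.6% called, median log2 fold change −0.20). PRRX1, a homeobox factor of mesenchymal cells, fell from 51.1 ± 8.04 to 4.93 ± 0.233 normalized reads (SD, n = 3 per group; log2 fold change −3.34, edgeR adjusted p = 3.15e-08). It had 63, 44 and 56 reads in control and 5, 4 and 5 in the other group, and passed the filter on low counts through the control libraries. The chromatin protein gene HMGA2 fell, with a log2 fold change of −0.75. TCF4 (0.50) and SOX4 (0.14) rose. TWIST2 and GSC had 0 reads in every library.

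Epithelial transcription factors were tested for 9 of 13 genes, of which 7 rose and 2 fell (median 0.42). That is 100% called, beside 53.6% of all tested genes. OVOL1, a zinc finger repressor known to antagonize ZEB1, rose from 73.3 ± 17.2 to 198 ± 14.4 normalized reads (SD, n = 3 per group; log2 fold change 1.43, edgeR adjusted p = 7.12e-08), and KLF5 rose by 0.65. The ETS factors EHF and ELF5 fell, with log2 fold changes of −1.25 and −2.93. ELF5 had 23, 37 and 28 reads in control and 3, 2 and 5 in the other group. It passed the filter on low counts through the control libraries. Of 11 tested splicing regulators of EMT, 3 rose and 5 fell (72.7% called), each by less than the change of ESRP1. ESRP2 and RBM47 (0.20) were the clearest rises, and PTBP1 (−0.17) and SRSF1 (−0.16) the clearest falls.

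Among 10 tested of 20 other cadherins, 5 rose and 3 fell (80% called beside 53.6% of all tested genes, median 0.29). CDH17, the liver-intestine cadherin, rose from 5976 ± 188 to 11500 ± 418 normalized reads (SD, n = 3 per group; log2 fold change 0.94, edgeR adjusted p = 4.36e-14), close to the value of CDH1. CDH26 rose from low levels by 2.04, with 10, 33 and 19 reads in control and 85, 72 and 71 in the other group. CDH8, also counted as risen, had 1, 5 and 7 reads in control and 22, 21 and 18 in the other group. It passed the filter on low counts through the PELP1-KD-labelled libraries. CDH6 fell, with a log2 fold change of −0.75. CDH10 had 41, 19 and 19 reads in control and 1, 0 and 2 in the other group, and passed the filter on low counts through the control libraries. The ratio of its summed reads, control over the other group, was 23.5 with an exact 95% counting interval of 7.74 to 116. With each library left out, its fitted log2 fold change of −4.40 ranged from −5.22 (without PELP1-KD replicate 3) to −3.93 (without PELP1-KD replicate 2). The catenins, which link cadherins to actin, had 3 genes up and 3 down of 8 tested (75% called). JUP (plakoglobin) rose by 0.66 and CTNNB1 (β-catenin) by 0.24, and CTNND2 and CTNNAL1 had log2 fold changes of −1.13 and −0.40. CTNNA2, also counted as fallen, had 13, 24 and 13 reads in control and 6, 7 and 4 in the other group. It passed the filter on low counts through the control libraries.

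Of 26 tested epithelial junction and keratin genes, 14 rose, 3 fell and 9 did not pass the test (median 0.23). That is 65.4% called, beside 53.6% of all tested genes. The biliary and progenitor keratin gene KRT19 rose from 12994 ± 407 to 24212 ± 1194 normalized reads (SD, n = 3 per group; log2 fold change 0.90, edgeR adjusted p = 7.69e-14), and PKP3, a desmosome plaque gene, rose by 1.26. ST14, which encodes the membrane protease matriptase, and F11R, which encodes the junction protein JAM-A, fell, with log2 fold changes of −1.54 and −0.26. Mesenchymal genes moved both ways. Of 20 tested, 8 rose, 6 fell and 6 did not pass (70% called, median 0.09). CD44, a hyaluronan receptor, rose from 569 ± 29.0 to 1805 ± 76.3 normalized reads (SD, n = 3 per group; log2 fold change 1.67, edgeR adjusted p = 4.12e-15), and COL1A1 rose by 1.44. NT5E and TPM2 fell, with log2 fold changes of −0.67 and −0.57.

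Of 6 tested intermediate filament genes beside VIM, 2 rose and 4 fell (100% called, where 53.6% of all tested genes were). The rises were those of PLEC (0.39) and NES (0.27), and the clearest falls were those of the lamin genes LMNB2 (−0.68) and LMNB1 (−0.30). Of 9 tested genes of the corepressors that SNAI and ZEB proteins recruit, 3 were called (33.3%, beside 53.6% of all tested genes). CTBP1 (−0.31) and KDM1A (−0.12) fell, and CTBP2 rose by 0.14 (edgeR adjusted p = 0.03). CTBP2 was not called without control replicate 1 (adjusted p = 0.164), control replicate 3 (0.0576), PELP1-KD replicate 2 (0.0602) or PELP1-KD replicate 3 (0.0511), nor by DESeq2 (0.0622). Regulators of SNAI protein stability had 1 call among 11 tested genes (9.09%, beside 53.6% of all tested genes). It was the kinase gene PAK1, which rose by 0.37 (edgeR adjusted p = 4.07e-06).

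**Figure D4:**
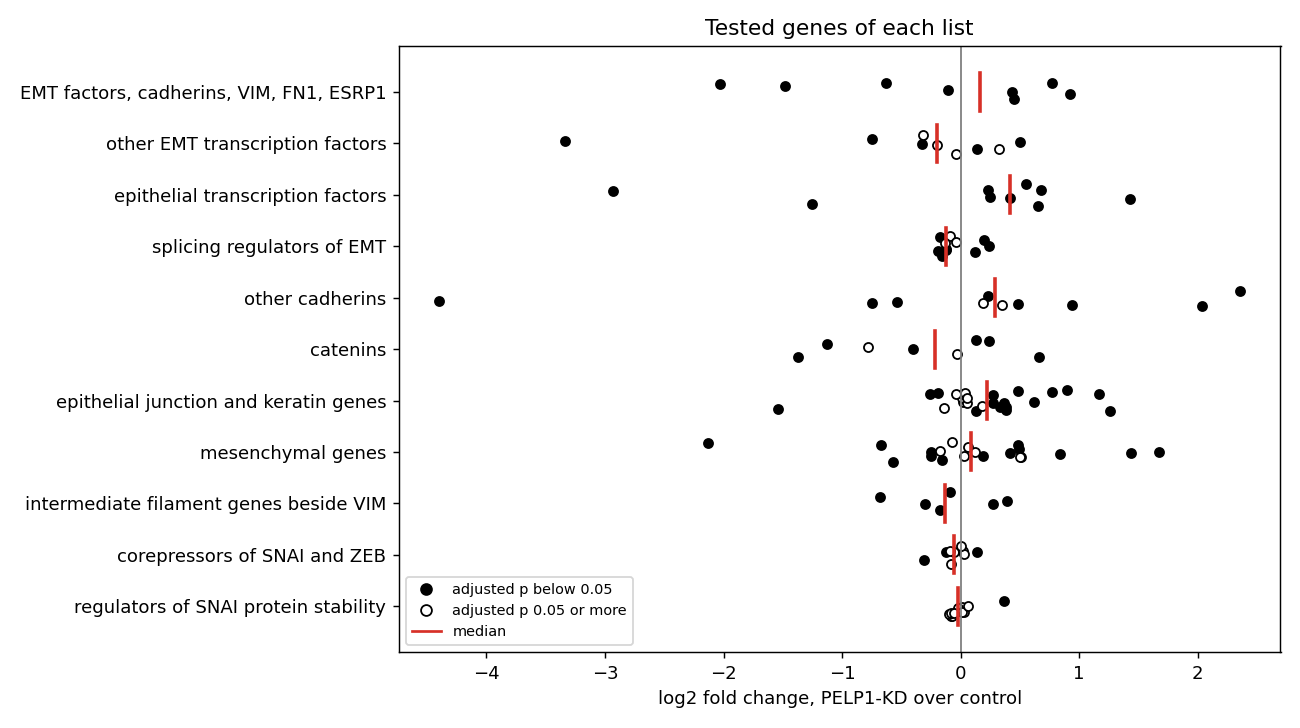
Log2 fold change (horizontal axis, PELP1-KD over control) of every tested gene of the 10 EMT genes and of the 10 gene lists described above, a point per gene, cell type markers not included. Filled points had an adjusted p below 0.05 from edgeR, open points did not, and red lines are medians. Points lie on both sides of 0 in every list shown, with medians from −0.22 for catenins to 0.42 for epithelial transcription factors.

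Markers of other cell types were also read, since in bulk RNA fewer cells of a type and less RNA per cell cannot be told apart. Of 7 fibroblast markers, LUM rose (0.92) and PDGFRA (−0.96) and PDGFRB (−2.13) fell, all named after their values were seen, and their summed level was 646 to 741 normalized reads in control and 765 to 861 in the PELP1-KD-labelled libraries. COL3A1 was not called (log2 fold change −0.07, edgeR adjusted p = 0.816). THY1 had 0 reads, and DCN and COL6A3 had 0 to 4 reads in any library. Of 6 endothelial markers, CDH5, KDR, TEK and EMCN had 0 reads, and the sum was 63.0 to 72.8 and 60.7 to 67.6 normalized reads. Immune markers summed to 1460 to 1640 and 1948 to 2099 normalized reads, with CD68 (log2 fold change 0.48, edgeR adjusted p = 1.24e-07) as the most abundant and CD14 lower (−0.98, adjusted p = 3.31e-06), both named after their values were seen, and with MS4A1 at 0 and PTPRC at 0 to 5 reads. CD3E had 0 to 2 reads and CSF1R 0 to 7 reads in any library. Of the 10 hepatocyte markers, 7 fell and 3 rose (100% called beside 53.6% of all tested genes, median −0.39). Their sum went from between 917627 and 930567 to between 776175 and 791368 normalized reads. The part of these shifts in the changes of the 10 EMT genes was not tested.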

How the data were processed

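RNA-seq of 3 control and 3 PELP1-KD libraries of Hep3B cells was used, grouped by the titles in the labels. Per the file headers, the authors deposited estimated counts per gene, not normalized, from featureCounts 1.5.0-p1 on hg19 exons, with strand taken into account and mapping quality of at least 2. Reads matching several places or genes were shared out as fractions. The methods of the study name TopHat2 and HTSeq, and the submitters' processing notes name HISAT2, so the aligner is uncertain. The labels also conflict on mRNA selection or ribosomal RNA removal, and on single or paired reads. Values were rounded to whole numbers.

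Fold changes and adjusted p values are from edgeR 4.0.16 (R 4.3.3; TMM, filterByExpr, robust glmQLFit and glmQLFTest, Benjamini-Hochberg over 14537 tested genes, threshold 0.05). Standard errors were taken as the size of the log2 fold change divided by √F, and 95% intervals use 4 degrees of freedom. These intervals are not an output of the edgeR test and can differ from its p values. Normalized reads are reads divided by each library's TMM-scaled size, with the sizes set to a geometric mean of 1, and RPKM uses the exon length in the tables. Counting intervals come from an exact binomial test and hold counting error alone. The median standard error of a log2 fold change was 0.063. The edgeR and DESeq2 fits were tested on simulated counts drawn independently for each library. Changes were planted only in genes with more reads, so the simulation does not cover rare genes such as SNAI2 and CDH10. Columns of per-sample values left unused numbered 0.

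The 10 genes and the lists were chosen with earlier results of these data known. Named from each list were the 2 genes with the smallest p in each direction among those past the threshold. CDH8 and CTNNA2 were given besides for their low reads, and are not counted among the named genes. Alternatives were DESeq2 1.42.0 (the tool of the study), DESeq2's size factors, upper-quartile normalization, no filter, at least 10 reads in every library, counts rounded down, a block for the replicate number, and leaving out each library. Same-numbered libraries deviated together (correlations across 6370 genes of 0.336, 0.247 and 0.666), most clearly replicate 3. The block for the replicate number was therefore run as an alternative, and the main fit had no block. Replicates 1 and 2 were not told apart by this, since control 2 with PELP1-KD 1 had 0.418 and control 1 with PELP1-KD 2 had 0.244. Replicates differed by more than sampling noise (chi-square per degree of freedom 1.94 to 7.02).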

Additional observations from a re-analysis of the deposited data

How the results depend on the processing

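The 8 tested genes kept their direction and an adjusted p below 0.05 in all 13 alternatives, with log2 fold changes of −0.69 to −0.53 for ZEB1, −1.56 to −1.38 for ZEB2, 0.41 to 0.51 for SNAI1, 0.91 to 0.93 for CDH1, 0.76 to 0.80 for CDH2, −0.13 to −0.10 for VIM, 0.41 to 0.44 for FN1 and −2.07 to −1.97 for ESRP1. The largest adjusted p among them was 0.0393, for VIM without PELP1-KD replicate 2. PELP1 was called in 2 alternatives, with the replicate block (−0.08, adjusted p = 0.0106) and without replicate 3 of PELP1-KD, and it ranged from −0.10 to −0.04 with each library left out. The block changed no other call among the 8 tested genes, the 36 named list genes and 5 marker genes (LUM, PDGFRA, PDGFRB, CD68 and CD14). Of 465 values of the 36 named list genes under the alternatives, 460 kept direction and call, and 5, all of CTBP2, lost the call. The 5 marker genes, run after the data were seen, kept direction and call in all 65 values. Depth limits SNAI2, ZEB2 and TWIST1, whose counts are small.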
